A study of Mus musculus with 7 samples.

Results

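The 45 genes described here make the proteins that copy DNA and supply its building blocks in S phase of the cell cycle. They were chosen by name from textbook knowledge of replication, with earlier results of these data known. All 45 had a completed comparison and a mean of at least 1 FPKM, out of 15965 genes with a value. FPKM is the number of sequenced fragments relative to transcript length and to all mapped fragments of the library, so it allows levels to be compared between genes. The member nearest to the minimum was Orc1, with a mean of 1.72 FPKM, and no member lay below it.

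The values come from poly-A RNA of tissue labelled as sinoatrial node, the pacemaker region of the right atrium, of Sv129 mice 3 weeks after birth. One library came from Baf250af/f mice, which carry floxed alleles of Baf250a (symbol Arid1a) and no Cre. Baf250a encodes part of the BAF complex, which remodels chromatin. The other came from Baf250af/f;Hcn4CreERT2 mice 6 days after tamoxifen, which switches on a recombinase driven from the pacemaker gene Hcn4. They are called the control library (without Cre) and the Cre library (with Cre), and wherever a pair of levels is given the control comes first. The number of mice behind each library is not in the labels, nor is it stated whether the control mice received tamoxifen. The series also holds 5 libraries of a time series after tamoxifen, which are not used. There is 1 library for each genotype, so the genotypes could not be tested against each other and no difference below has a replicate check.

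Copying of DNA begins at origins, which the origin recognition complex marks. In G1 phase Cdc6 and Cdt1 load the ring-shaped MCM2-7 helicase there, and Cdc45 and the GINS complex then turn the ring into a running helicase. Primase and polymerase alpha start each strand, the clamp loader RFC places the sliding clamp PCNA, and polymerases delta and epsilon extend the strands. Many of these genes are transcribed by E2F factors when a cell commits to division, and they are low in cells that have left the cycle, as most heart muscle cells do within weeks of birth. Developing T cells in the thymus divide rapidly at some of their stages.

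The libraries also differed from each other in genes of other tissues and of sex. Arid1a, the floxed gene, had 34.9 FPKM in the control library and 12.3 FPKM in the Cre library, but this value includes exons outside the floxed part. Of the defining pacemaker genes, Hcn4 had 0.605 FPKM without Cre and 0.719 FPKM with Cre. Isl1 had 1.69 and 2.02 FPKM, and Shox2 had 1.204 and 1.265 FPKM. The largest ratios of the measured pacemaker genes were those of Cacna1g, at 1.57 and 4.37 FPKM, and Tbx3, at 0.996 and 2.59 FPKM. Less specific genes of that list reached higher levels, with Tbx18 at 4.83 and 7.03 FPKM and Smoc2 at 17.3 and 25.8 FPKM. All 20 listed thymocyte and T cell genes were at least 2-fold lower in the Cre library, beside 10.4% of all measured genes. The summed level of these 20 was 3466 FPKM without Cre and 18.1 FPKM with Cre. None of them was listed at 0. Prss16, which thymic epithelium expresses, had 198 FPKM without Cre and 0.381 FPKM with Cre. Xist, a transcript of the inactive X chromosome, had 0.379 FPKM without Cre and 93.2 FPKM with Cre, while the Y-linked Eif2s3y had 85.8 and 0.118 FPKM, so by these genes the libraries also differ in sex. All 8 listed lung epithelium genes passed 2-fold in the other direction, beside 6.08% of all measured genes. Their summed level was 4188 FPKM without Cre and 18612 FPKM with Cre. Thymus genes, lung genes, sex, the presence of Cre and the level of Arid1a change together between these libraries and cannot be told apart.

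All 45 members lay below equal expression in the Cre library, as did 54.0% of all measured genes, and 38 members were at least 2-fold lower. None was higher. Over all 13410 measured genes 10.4% were at least 2-fold lower and 6.08% at least 2-fold higher. At 4-fold the counts were 20 members, against 3.88% of all measured genes. The member median was a log2 ratio of -1.86 (quartiles -2.28 and -1.44), beside -0.07 for all measured genes. A log2 ratio here compares FPKM + 1 with Cre to FPKM + 1 without it, and the added 1 shrinks differences of weak genes. Without the added 1, the median member in the Cre library stood at 21.3% of its control level. Summed over members, the level was 1452 FPKM without Cre and 375 FPKM with Cre, or 25.8%. The summed thymocyte and T cell genes stood at 0.523%, and their part in the member difference was not tested. In bulk tissue, fewer cells of a type and less RNA per cell cannot be told apart.

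**Figure D1:**
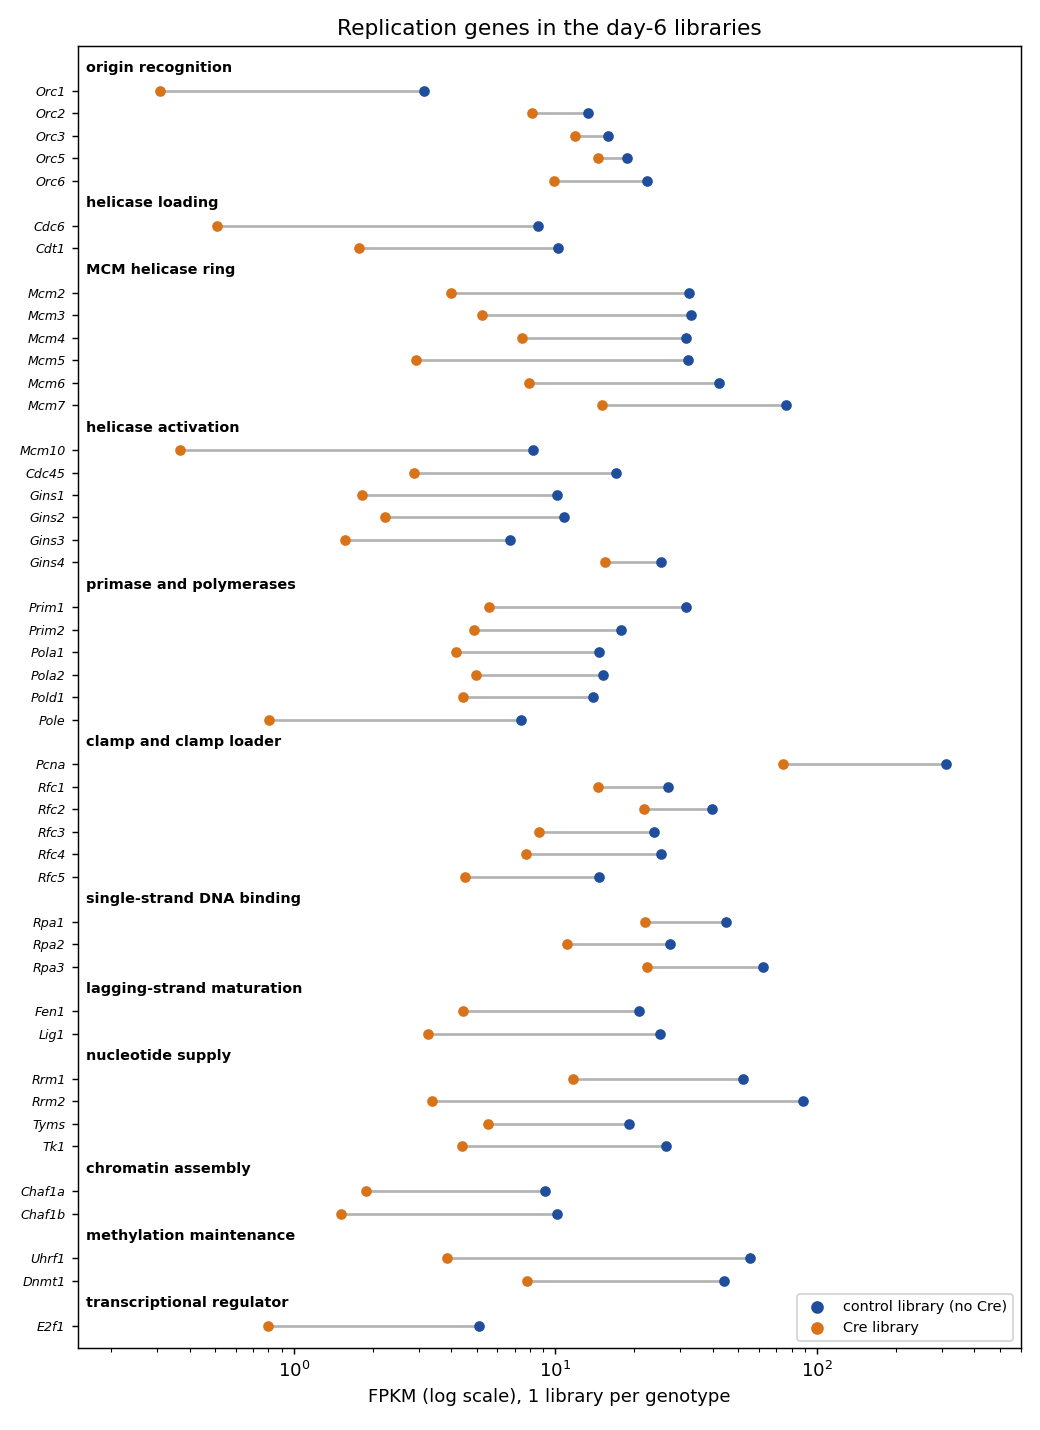
Level of each of the 45 members in the control library (blue) and the Cre library (orange) on a log axis of FPKM, grouped by step of replication, with 1 library per point. Every orange point lies left of its blue point, and the gaps are shortest for Orc5, Orc3, Gins4, Orc2, Rfc2 and Rfc1.

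The members were also compared by the letters of their promoters, since E2F factors are the textbook link between these genes. RefSeq promoter windows (GRCm38.p6, 250 bases before to 50 bases after the start of transcription) were at hand for 38 of the 45. The E2F-type letters searched on both strands were TTTCCCGC, TTTGGCGC, TTTCGCGC and TTTGCCGC. On opposite strands 2 such matches can overlap. At least 1 window of 15 of the 38 members (39.5%) held a match, beside 4.61% of 9502 measured genes with a window. The median GC content was 60.8% in the members and 60.7% in the measured genes. Each of the searched E2F-type letters contains CG, and the median number of CG pairs per window was 23.5 and 20. Among measured genes whose GC lay inside the members' quartiles, the share with a match was 5.18% and the median number of CG pairs 19. The part of CG pairs in the difference between these shares was not tested. A match is a description of letters and not a shown binding site. The 200 bases before the start are shown for 6 members, to let the letters be seen beside the expression values. Capitals mark the matches, and each is written 5′ to 3′ on the strand of the gene. Mcm5, Mcm6, Mcm7 and Cdc6 hold matches and were strongly lower, Orc3 holds one and differed little, and Rrm2 holds none here and had the lowest ratio of all.
Mcm5, chr8:75109309-75109508, plus strand: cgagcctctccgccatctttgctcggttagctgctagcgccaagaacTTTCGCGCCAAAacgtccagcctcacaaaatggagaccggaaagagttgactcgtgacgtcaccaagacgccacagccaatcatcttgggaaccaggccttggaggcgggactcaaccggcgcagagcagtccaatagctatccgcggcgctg
Mcm6, chr1:128359706-128359905, minus strand: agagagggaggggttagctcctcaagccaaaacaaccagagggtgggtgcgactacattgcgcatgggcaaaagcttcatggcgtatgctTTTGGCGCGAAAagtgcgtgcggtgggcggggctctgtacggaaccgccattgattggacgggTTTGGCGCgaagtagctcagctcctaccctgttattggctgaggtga
Mcm7, chr5:138171884-138172083, minus strand: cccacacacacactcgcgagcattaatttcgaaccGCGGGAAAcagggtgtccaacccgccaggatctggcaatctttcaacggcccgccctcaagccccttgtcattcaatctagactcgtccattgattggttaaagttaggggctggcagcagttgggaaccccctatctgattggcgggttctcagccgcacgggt
Cdc6, chr11:98907951-98908150, plus strand: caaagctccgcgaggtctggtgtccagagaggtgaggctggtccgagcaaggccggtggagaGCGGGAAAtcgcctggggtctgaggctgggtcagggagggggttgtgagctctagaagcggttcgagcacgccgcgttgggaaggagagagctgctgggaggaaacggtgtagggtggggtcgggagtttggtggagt
Orc3, chr4:34614943-34615142, minus strand: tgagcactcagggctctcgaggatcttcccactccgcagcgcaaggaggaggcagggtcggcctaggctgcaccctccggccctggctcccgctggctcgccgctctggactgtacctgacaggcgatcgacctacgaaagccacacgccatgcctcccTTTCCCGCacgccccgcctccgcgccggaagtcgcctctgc
Rrm2, chr12:24708054-24708253, plus strand: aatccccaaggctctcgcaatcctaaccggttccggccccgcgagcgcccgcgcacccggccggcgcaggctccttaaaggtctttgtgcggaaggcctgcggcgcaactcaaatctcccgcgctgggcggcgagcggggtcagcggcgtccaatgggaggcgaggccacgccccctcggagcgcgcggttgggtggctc

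In Mcm5 and in the upstream match of Mcm6 the capitals run through 12 bases, because matches on the 2 strands overlap. Mcm6 holds a further match that begins 47 bases before the start. In Cdc6 and Mcm7 the letters read GCGGGAAA, the reverse complement of TTTCCCGC, beginning 138 and 165 bases before the start. Matches upstream of the start were also present in Orc1, Gins3, Pola1, Rfc3, Uhrf1 and Dnmt1, which makes 11 members, while Cdt1, Mcm3, Pold1 and Lig1 had theirs only after it. Members with a match had a median log2 ratio of -2.26 (n = 15) and those without one -1.76 (n = 23), with overlapping ranges from -3.54 to -0.40 and from -4.35 to -0.34.

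The same search was made in other lists. E2F-type letters were in 17 of 45 other replication genes with a window (37.8%), but in 1 of 18 mitosis genes (5.56%) and in 0 of 16 thymocyte and T cell genes. The CCAAT box, the binding letters of the factor NF-Y, was in 16 of 18 mitosis genes (88.9%), 24 of 38 members (63.2%) and 42.8% of measured genes. TTTGAA, the cell cycle homology region of late cell cycle promoters, was in 13 of 18 mitosis genes (72.2%), 5 of 38 members (13.2%) and 14.1% of measured genes. TATAAA was in 2 of 38 members (5.26%) and 9.19% of measured genes. Members and mitosis genes were both lower in the Cre library. E2F-type letters were commoner in members than in mitosis genes, and TTTGAA and the CCAAT box were commoner in mitosis genes. In other replication genes TTTGAA was in 13 of 45 (28.9%). In relatives of the members outside S phase, described below, E2F-type letters were in 1 of 18 (5.56%) and TTTGAA in 4 of 18 (22.2%).

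**Figure D2:**
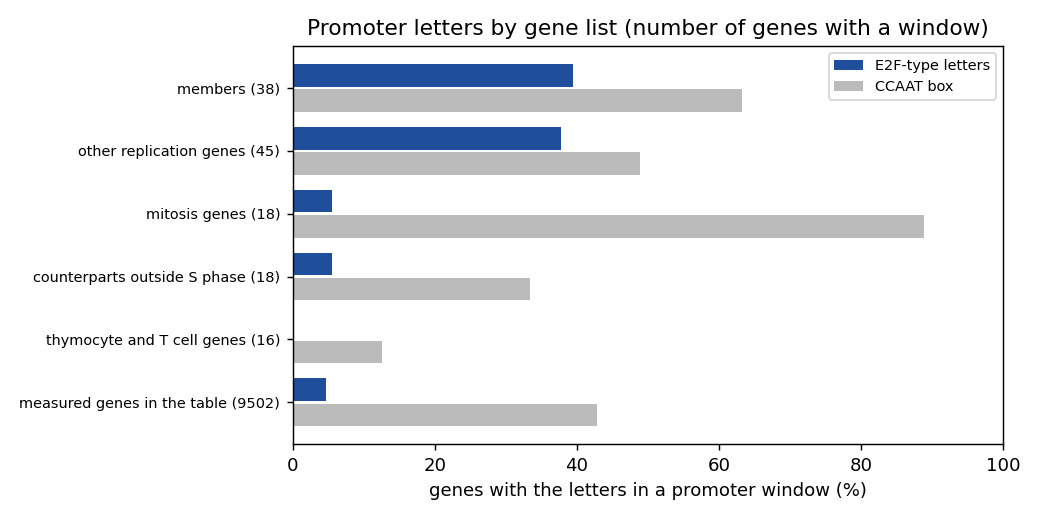
Percentage of genes in each list whose promoter window holds E2F-type letters (blue) or a CCAAT box (grey), with the number of genes that have a window in brackets. E2F-type letters reach 39.5% in members and 37.8% in other replication genes, against 4.61% of measured genes, and the CCAAT box peaks at 88.9% in mitosis genes.

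Origin recognition was the step with the smallest difference, with 2 of 5 members at least 2-fold lower and a median log2 ratio of -0.65. Orc1, an ATPase subunit whose level follows the cell cycle, had 3.14 FPKM without Cre and 0.307 FPKM with Cre. Orc6 had 22.4 FPKM and 9.91 FPKM. The remaining subunits differed less. Orc2 had 13.3 FPKM without Cre and 8.11 FPKM with Cre, Orc3 had 16.0 and 11.9 FPKM, and Orc5 had 18.7 and 14.6 FPKM. Orc4, a further subunit outside the members, had 20.5 FPKM without Cre and 13.6 FPKM with Cre. Among the 5 members the highest was 7.14 times the lowest in the control library and 47.4 times in the Cre library. These ratios rested on Orc1: without it they were 1.69 and 1.80. Orc3 shares its annotated locus with Akirin2, and Orc5 with Gm15421, so reads may be shared there. The Orc6 ratio of -1.10 became smaller than 2-fold when the libraries were set to the same upper quartile.

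Both helicase loaders were at least 4-fold lower, but Cdt1 only narrowly, with a log2 ratio of -2.01. Its ratio was -1.84 with a common upper quartile, -1.94 after centring and -1.16 with a pseudocount of 5. With that pseudocount Cdc6 was also short of 4-fold, at -1.30. Cdc6, an ATPase that helps to load the ring, had 8.59 FPKM without Cre and 0.507 FPKM with Cre, or 5.90% of control. Cdt1, which brings the ring to the origin, had 10.2 and 1.78 FPKM. At these low levels the added 1 FPKM matters. Cdc6 kept a smaller share of its control level than Mcm2 (12.3%), yet its log2 ratio of -2.67 was nearer to 0 than the -2.74 of Mcm2.

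All 6 subunits of the MCM2-7 ring were at least 2-fold lower. Mcm2, Mcm3, Mcm4 and Mcm5 had 32.4, 33.0, 31.6 and 32.2 FPKM there, close to each other. In the Cre library the same genes had 3.99, 5.22, 7.47 and 2.93 FPKM. Mcm6 had 42.3 FPKM without Cre and 7.90 FPKM with Cre, and Mcm7 had 76.0 and 15.1 FPKM. The ring sum in the Cre library was 17.2% of control. The ratio of the highest to the lowest subunit was 2.41 in the control and 5.14 in the Cre library, with Mcm7 highest in both. Mcm5 (mm9 chromosome 8, 77633426 to 77652338) had the lowest ratio of the ring, at -3.08, and Mcm4 the one nearest to 0, at -1.94.

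Of the 6 genes that activate the helicase 5 were at least 2-fold lower. Mcm10, which acts as the helicase starts and is not part of the ring, had 8.18 FPKM without Cre and 0.367 FPKM with Cre, or 4.49%. Cdc45 had 17.1 and 2.89 FPKM. GINS has 4 subunits, and 3 of them stood between 18.0% and 23.5% of control. Gins1 had 10.1 FPKM without Cre and 1.82 FPKM with Cre, Gins2 had 10.8 and 2.24 FPKM, and Gins3 had 6.69 and 1.57 FPKM. Gins4 stood apart with 25.3 and 15.5 FPKM, 61.5% of control. In the Cre library it was 9.89 times as high as Gins3, beside 3.77 times in the control. Gins2 lies in one deposited locus with Gse1, and Gse1 was likewise lower, at 24.0 and 6.40 FPKM.

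The 6 primase and polymerase members were all at least 2-fold lower, with a median log2 ratio of -1.63. Other subunits of polymerases delta and epsilon, outside the members, were short of 2-fold, apart from Pole2 at -1.34. Their log2 ratios were -0.41 for Pold2, -0.80 for Pold3, -0.37 for Pold4, -0.36 for Pole3 and -0.22 for Pole4. Prim1, the catalytic primase subunit, had 31.6 FPKM without Cre and 5.57 FPKM with Cre, and its partner Prim2 had 17.8 and 4.90 FPKM. Pola1, the catalytic subunit of polymerase alpha, had 14.7 and 4.18 FPKM, and Pola2 had 15.3 and 4.98 FPKM. Unlike the ring, this complex was not more uneven in the Cre library, where its 4 genes lay within 1.33-fold, against 2.15-fold in the control. Pola1 lies on the X chromosome, and the libraries differ in sex. Pold1, the catalytic subunit of polymerase delta, had 14.0 FPKM without Cre and 4.44 FPKM with Cre. Pole, that of polymerase epsilon, had 7.40 and 0.805 FPKM, 10.9% of control and the lowest share of the step.

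Pcna, the sliding clamp, was the most abundant member in both libraries, with 312 FPKM without Cre and 74.3 FPKM with Cre (mm9 chromosome 2, 132075021 to 132078916). Its log2 ratio was -2.06. The clamp loader differed less than the clamp. Rfc1, the large subunit, had 26.9 FPKM without Cre and 14.5 FPKM with Cre, and Rfc2 had 39.6 and 21.9 FPKM, both short of the 2-fold rule. Rfc3 had 23.7 and 8.69 FPKM, Rfc4 had 25.4 and 7.71 FPKM, and Rfc5 had 14.6 and 4.50 FPKM. Rfc2 to Rfc5 also serve in loaders that act in checkpoint and cohesion pathways. Rfc4 shares its locus with Eif4a2, which had 261 FPKM without Cre and 241 FPKM with Cre.

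RPA, which coats single-stranded DNA in replication and in repair, differed moderately. Rpa1 had 45.05 FPKM without Cre and 22.1 FPKM with Cre, a log2 ratio of -0.997 that passed the 2-fold rule only with a pseudocount of 0.1. Rpa2 had 27.5 and 11.1 FPKM, and Rpa3 had 62.2 and 22.4 FPKM. The enzymes that finish the lagging strand were lower by more. Fen1, the flap nuclease, had 20.9 FPKM without Cre and 4.45 FPKM with Cre. Lig1, the ligase that joins the fragments, had 25.2 and 3.27 FPKM, in a locus shared with 6330408A02Rik at 2.17 and 2.13 FPKM.

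Nucleotide supply held the member with the lowest ratio. Rrm2, the small subunit of ribonucleotide reductase that limits the making of deoxynucleotides in S phase, had 88.2 FPKM without Cre and 3.37 FPKM with Cre (mm9 chromosome 12, 25393118 to 25399011), a log2 ratio of -4.35. Rrm1, the large subunit, had 52.2 and 11.7 FPKM. The order of the subunits therefore turned, with Rrm2 above Rrm1 in the control library and Rrm1 3.46 times as high as Rrm2 in the Cre library. Tyms, which makes the thymidine nucleotide, had 19.0 and 5.51 FPKM. Tk1, the cytosolic thymidine kinase, had 26.4 and 4.39 FPKM, in a locus shared with Afmid at 5.55 and 4.91 FPKM.

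Genes that rebuild chromatin behind the fork followed the same direction. Chaf1a, a subunit of the histone chaperone CAF-1, had 9.15 FPKM without Cre and 1.88 FPKM with Cre, and Chaf1b had 10.2 and 1.52 FPKM. Uhrf1, which recognises newly copied DNA that is methylated on one strand, had 55.5 and 3.86 FPKM (mm9 chromosome 17, 56442759 to 56462909). Its log2 ratio of -3.54 was the second lowest of the members. Dnmt1, the methyltransferase that Uhrf1 recruits, had 44.0 and 7.80 FPKM. E2f1, an activating E2F factor, was weak in both, with 5.12 FPKM without Cre and 0.800 FPKM with Cre.

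The authors' deposited table called 2 of the 45 members significant, beside 0.656% of all measured genes called and lower in the Cre library. These were Rrm2 (deposited q-value 0.0149) and Uhrf1 (deposited q-value 0.0463). A p-value under 0.05 was listed in the authors' deposited table for 26 members, beside 5.15% of all measured genes listed so and lower. That test compares these 2 libraries and not the genotypes.

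Relatives of the members that work in mitochondria, in repair or in resting cells differed less than the members. Of 23 such genes 4 were at least 2-fold lower and 0 higher, beside 10.4% and 6.08% of all measured genes. Their median log2 ratio of -0.42 was also below the -0.07 of all measured genes. With both libraries set to a common upper quartile 2 were lower. Comparing a member with its relative inside 1 library removes the scaling between libraries. Rrm2b, the small reductase subunit of resting cells, had 10.6 FPKM without Cre and 12.7 FPKM with Cre. Rrm2 was thus 8.29 times as high as Rrm2b in the control, whereas in the Cre library Rrm2b was 3.75 times as high as Rrm2. Tk2, the mitochondrial thymidine kinase, had 8.52 and 8.11 FPKM, and the ratio of Tk1 to Tk2 went from 3.10 to 0.541. Lig3, a repair and mitochondrial ligase, had 7.90 and 5.604 FPKM, and Lig1 over Lig3 went from 3.19 to 0.584. For Dnmt1 over the de novo methyltransferase Dnmt3a, at 12.4 and 9.005 FPKM, the ratio went from 3.54 to 0.866. In these 4 pairs, chosen with values known, the replication gene was the higher one in the control library and the lower one in the Cre library. Other relatives on the list gave other patterns. Lig1 over Lig4 was 1.01 without Cre and 0.985 with Cre, and Dnmt1 stayed above Dnmt3b, at 26.2 and 8.61 times its level.

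The other pairs kept their order. Polg, the mitochondrial polymerase, had 20.9 FPKM without Cre and 12.1 FPKM with Cre, above Pole in both, and Pole over Polg went from 0.354 to 0.0665. E2f4, an E2F factor that represses these genes in resting cells, had 32.4 and 11.1 FPKM and was itself more than 2-fold lower. E2f1 over E2f4 went from 0.158 to 0.0718. The other relatives past the rule were Lig4, the end-joining ligase that lymphocytes use when they build antigen receptors, at 24.8 and 3.32 FPKM, Ubn1 at 22.4 and 10.1 FPKM, and Top1 at 51.7 and 24.2 FPKM.

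**Figure D3:**
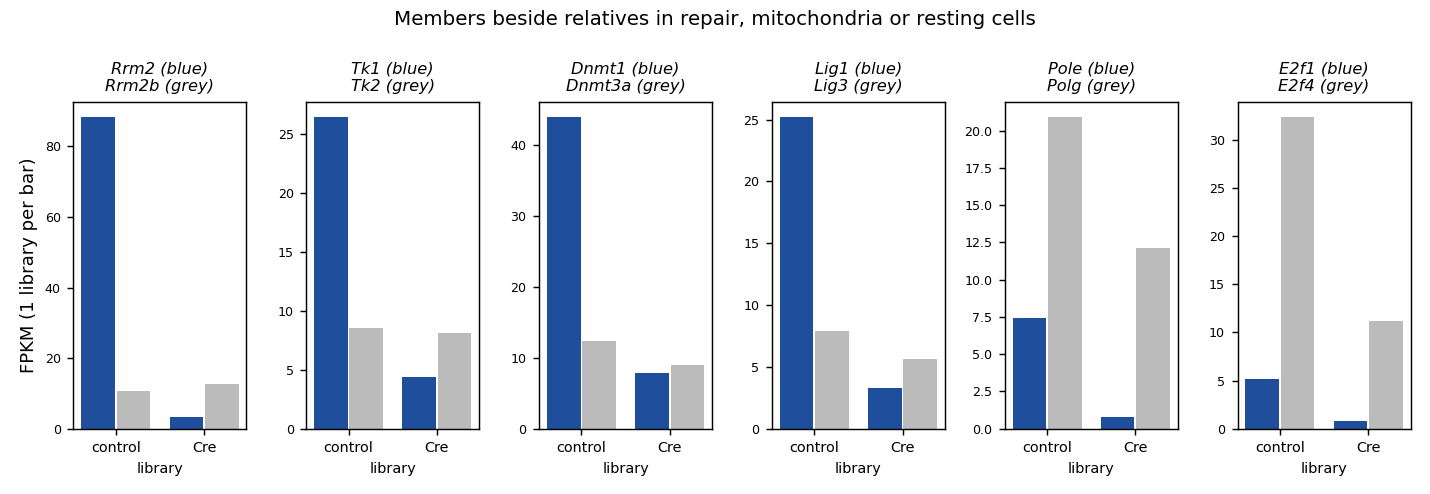
FPKM of 6 members (blue) and of a relative with a role in repair, mitochondria or resting cells (grey) in the control and Cre libraries, with 1 library per bar and an axis of its own for each pair. Blue exceeds grey in the control and falls below it in the Cre library for Rrm2, Tk1, Dnmt1 and Lig1, while Pole and E2f1 lie below their relatives in both.

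The wider replication pathway had the same direction. Of 54 further genes 38 were at least 2-fold lower and 0 higher, beside 10.4% and 6.08% of all measured genes. Their median log2 ratio was -1.57. Cdca7, a chromatin factor of dividing cells, had 86.5 FPKM without Cre and 2.32 FPKM with Cre. Dck, the salvage kinase for deoxycytidine that is known for its high level in lymphoid cells, had 87.6 and 4.27 FPKM. E2f2 had 47.5 and 1.16 FPKM, and E2f8 had 11.9 and 0.412 FPKM. Ccna2, cyclin A of S phase and G2, had 58.2 and 2.66 FPKM. Asf1b, a histone chaperone, had 30.0 and 1.63 FPKM, Fbxo5, an inhibitor of the anaphase-promoting complex, had 42.9 and 3.05 FPKM, and Clspn, a checkpoint mediator, had 14.2 and 0.506 FPKM. The 2 genes above equal expression, named after their values were seen, were Shmt1 at 9.64 and 12.1 FPKM and Ctps at 15.1 and 15.2 FPKM.

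Set beside lists of cell types, the members lay between the mitosis genes and the genes of the heart. For the counts below, 10.4% of all measured genes were at least 2-fold lower and 6.08% at least 2-fold higher. All 20 mitosis genes were at least 2-fold lower, with a median log2 ratio of -3.69, and their Cre levels ran from 2.51% to 11.1% of control. Top2a had 174 FPKM without Cre and 4.37 FPKM with Cre, and Mki67 had 80.5 and 2.12 FPKM. Members ran from 3.82% to 77.6% of control, so the replication list reached much closer to equal expression than the mitosis list did. Thymocyte and T cell genes had a median of -6.30 and ran from 0.12% to 4.87% of control, with Rag1, the antigen receptor recombinase, at 436 and 0.832 FPKM. None of 12 working cardiomyocyte genes was lower and 5 were higher, with a median of 0.89. Endothelial genes had a median of 0.55 (0 of 9 lower) and fibroblast genes 0.19 (0 of 9 lower, 1 higher). Pacemaker genes had a median of 0.35 (0 of 8 lower, 1 higher) and macrophage genes -0.12 (1 of 8 lower). The thymic epithelium list had a median of -2.50, with 5 of 6 lower. The B cell list had a median of 0.51 (1 of 3 lower) and the red blood cell list -0.82 (0 of 2), while lung epithelium genes had a median of 2.54 and 8 of 8 were higher.

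**Figure D4:**
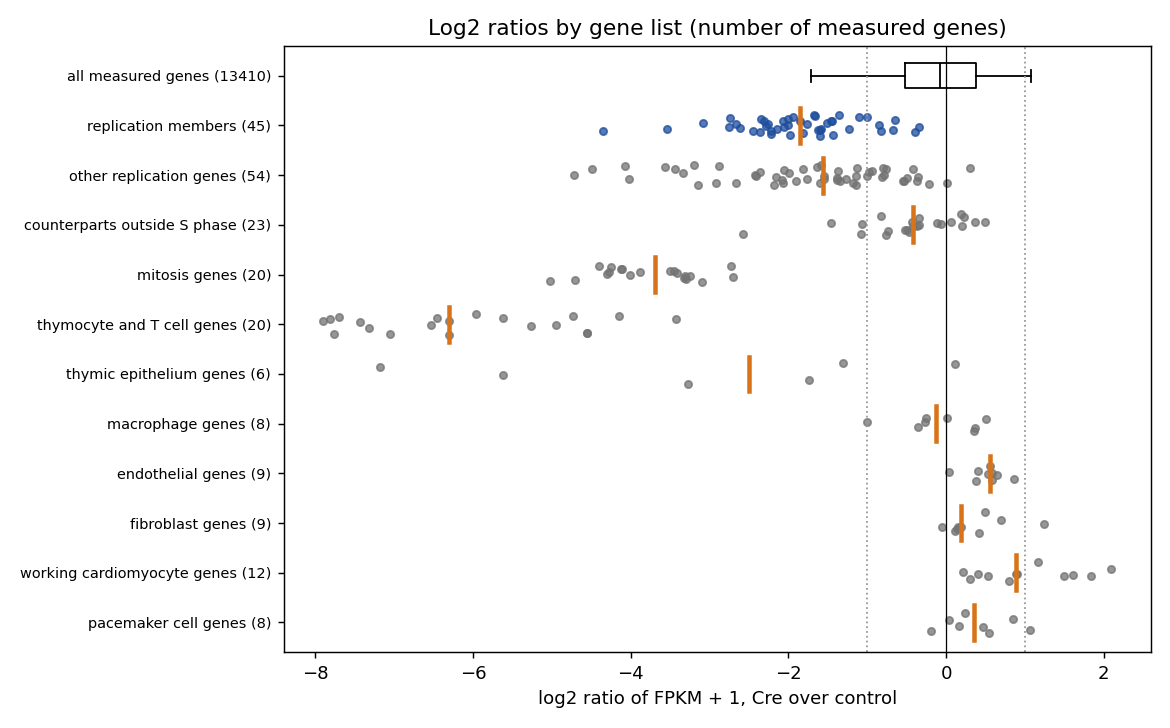
Log2 ratio of FPKM + 1, Cre over control, for each measured gene of the members (blue) and of other lists (grey), with an orange bar at each list's median and dotted lines at 2-fold. The box shows the quartiles of all 13410 measured genes and its whiskers the central 90% of genes, and the members' median of -1.86 lies between those of mitosis genes (-3.69) and of the relatives outside S phase (-0.42).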

How the data were processed

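Poly-A RNA of 7 libraries was sequenced, and the 2 libraries of day 6 are used here. The submitters' processing notes name TopHat, Bowtie, Cufflinks and the build mm9. Their versions, the annotation, strand use and how libraries were scaled are not stated. The deposited table lists 1 value per gene and library, taken as FPKM from its column layout, since no label states the unit. The same deposited rows hold the authors' p-value, q-value, log2 fold change and a score that is their test statistic. Of 15967 rows, 2 were not completed and were left out. Read depth is unknown: the commonest ratio of FPKM between libraries, 0.824, occurred in 32 genes (0.2004%), too few to recover reads.

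From these values log2 ratios of FPKM + 1 were computed (Python 3.11.15, pandas 2.3.3) for the 13410 genes whose mean reached 1 FPKM, without 29 small-RNA genes, and a size rule of 2-fold was used, with no test. The script was tested on simulated 4-fold changes of well-expressed genes, which says nothing about weak genes or differences near 2-fold. Members, lists and pairs were chosen with earlier results of these data known. Named genes are every member, up to 8 with the largest ratio in the other replication genes and relatives, direct relatives, and up to 4 per marker list (not all are given). The promoter search, the pairs' ratios and the 6 sequences shown were added after values had been seen. Promoter windows come from RefSeq on GRCm38.p6, and gene coordinates are those of the deposited table on mm9.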

Additional observations from a re-analysis of the deposited data

How the results depend on the processing

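No replicates exist, so no library could be left out, and no paired analysis was possible because each genotype has 1 library. Alternatives were pseudocounts of 0.1 and 5, no minimum, a minimum of 5 FPKM, a common upper quartile, TPM, centring on the median of all genes, leaving out genes that share a locus, and a 4-fold rule. Under none of them was a member above equal expression. At 2-fold, lower members numbered from 34 (pseudocount of 5) to 39 (pseudocount of 0.1) in the settings that kept all 45. They were 32 of 39 with a minimum of 5 FPKM and 34 of 39 without shared loci. The share of all genes at least 2-fold lower moved too, to 6.00% with a pseudocount of 5 and 12.6% with 0.1. It was 10.8% with a minimum of 5 FPKM, 10.6% without shared loci and 8.08% with a common upper quartile. With the 4-fold rule 20 members were lower, beside 3.88% of all genes. The 4-fold count was also 20 for the other replication genes, and 1 for the relatives outside S phase. At 2-fold the count of 38 other replication genes became 27 with a pseudocount of 5 and 40 with a pseudocount of 0.1. The relatives' count of 4 became 2 with a pseudocount of 5 and 2 with a common upper quartile. The members' median log2 ratio of -1.86 became -2.21 with a pseudocount of 0.1, -1.19 with 5, -1.68 with a common upper quartile, -2.03 in TPM, -1.79 after centring and -1.94 without shared loci. The common upper quartile moved the median of all genes by 0.20, and 54.6% of all differences past the rule were then higher in the Cre library, against 36.9%. The call of Orc1, Gins3 and E2f1 was lost with a pseudocount of 5, and that of Orc6 with a pseudocount of 5 or a common upper quartile. Depth is unknown, so levels under 1 FPKM (5 members in the Cre library) have no counting interval.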

Other observations

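The members took 0.292% of the summed FPKM of all genes without Cre and 0.0772% with Cre. Across the 45 members, the levels on the log2(FPKM + 1) scale correlated between libraries with a Pearson r of 0.780, a description over genes that share both libraries and their scaling. A level above 10 FPKM was found for 38 members in the control and 11 in the Cre library.

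The authors' deposited test statistic was uneven for members that share a locus. Divided by the deposited log2 fold change, it lay between 0.867 and 1.27 for the 39 members with a locus of their own, and between 0.173 and 1.15 for the 6 that share one. Rfc4 had a deposited log2 fold change of -1.72 with a deposited p-value of 0.746, and Gins2 had -2.26 with 0.606, while Fen1, in a locus of its own, had -2.23 with 0.0257 in the authors' deposited table. Fen1 was not called either, with a deposited q-value of 0.581. Of the members that share a locus, Orc3 (1.06), Orc5 (1.15) and Lig1 (0.965) lay inside the range of the 39, and Tk1 (0.764) below it. The part of locus sharing in the statistics of Rfc4 and Gins2 was not tested. The absence of a call for Rfc4 or Gins2 says little about their levels.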
